A study of Mus musculus with 6 samples.

Results

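The Polycomb complex genes described here are Ezh1, Ezh2, Eed, Suz12, Jarid2, Rnf2, Ring1, Bmi1, Cbx2 and Kdm6b. They were chosen by name: every non-control probe on the array that carries one of these gene names was taken, on all 6 arrays. This gave 14 probes of 55681 on the array, and 10 genes of the 24553 that could be tested. Ezh1 had 4 probes, Bmi1 had 2 and the other 8 genes had 1 probe each. All 14 probes were well above background on all 6 arrays, so no member was lost to the filter on dim probes.

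Whole testes of male pups at postnatal day 0, of a mixed FVB.129/Sv strain, were the source of the RNA, with 2 animals in each of 3 groups. VSKO animals carried 1 deleted and 1 floxed allele of Sin3a, a scaffold of histone deacetylase complexes, together with a Cre recombinase. HEMI animals carried the Cre with 1 deleted and 1 intact Sin3a allele, and WT animals carried the Cre with both Sin3a alleles intact. The Cre was driven by Ddx4 (also called Vasa or Mvh), a germ cell gene, so all 3 groups carried it and only VSKO animals had a floxed allele for it to act on. RNA of all cell types of the testis was measured together, so fewer cells of a type and less RNA per cell cannot be told apart.

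Polycomb proteins keep developmental genes silent through marks on histones. Polycomb repressive complex 2 (PRC2) methylates lysine 27 of histone H3 through the catalytic subunit EZH2 or EZH1, which needs EED and SUZ12, and JARID2 is a cofactor that helps bring the complex to chromatin. Polycomb repressive complex 1 (PRC1) ubiquitinates histone H2A through RNF2 (RING1B) or RING1 paired with a PCGF protein such as BMI1, and CBX proteins such as CBX2 read the methyl mark. KDM6B removes that mark. In the male germ line Polycomb complexes take part in repressing somatic programmes, and Cbx2 is needed for normal male sex determination.

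Stretches around the starts of Ezh2, Suz12 and Bmi1 are shown because, among the members with a RefSeq promoter entry, they alone held one of the 2 rarer motifs searched. The sequences are from RefSeq on GRCm38.p6, run 5′ to 3′ on the strand of the gene and end 20 bases after its start. The Ezh2 stretch is chr6:47595011-47595280 on the minus strand, the Suz12 stretch is chr11:79992856-79993125 on the plus strand and the Bmi1 stretch is chr2:18676768-18677037 on the plus strand. Capitals mark the E2F-type letters (TTTCCCGC, or with the middle pair changed TTTGGCGC, or likewise TTTCGCGC, or likewise TTTGCCGC), the box CCAAT, which may lie on either strand, and the E-box with the letters CACGTG.
Ezh2: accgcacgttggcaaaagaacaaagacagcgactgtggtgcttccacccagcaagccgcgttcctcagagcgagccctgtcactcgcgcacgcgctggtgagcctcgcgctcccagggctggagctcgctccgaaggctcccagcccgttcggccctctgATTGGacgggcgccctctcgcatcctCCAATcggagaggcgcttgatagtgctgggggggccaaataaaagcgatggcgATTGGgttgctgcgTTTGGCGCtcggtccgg
Suz12: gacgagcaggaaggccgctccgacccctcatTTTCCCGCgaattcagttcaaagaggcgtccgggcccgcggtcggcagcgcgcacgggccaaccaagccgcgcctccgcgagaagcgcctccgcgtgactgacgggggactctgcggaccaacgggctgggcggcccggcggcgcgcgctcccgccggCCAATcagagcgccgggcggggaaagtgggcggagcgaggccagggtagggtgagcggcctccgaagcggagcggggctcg
Bmi1: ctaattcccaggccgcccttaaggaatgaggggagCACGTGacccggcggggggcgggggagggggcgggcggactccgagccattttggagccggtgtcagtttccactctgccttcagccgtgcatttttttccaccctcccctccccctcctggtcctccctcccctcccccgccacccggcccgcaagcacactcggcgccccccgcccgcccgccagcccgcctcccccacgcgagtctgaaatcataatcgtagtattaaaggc
The search covered both strands of 300 bases per promoter, and none of the motifs contains another. The E2F-type letters occurred in 2.26% of 32851 promoters, and among the 8 members with an entry in Ezh2 and Suz12. In Suz12 they begin at base -219 from the start, and in Ezh2 at base 4. CCAAT occurred in 37.4% of promoters and in those of 4 members, Ezh2, Eed, Suz12 and Jarid2. CACGTG occurred in 7.15% of promoters and in that of Bmi1. The 9 promoter entries of these 8 genes (Jarid2 has a pair) held 17 to 41 CpG dinucleotides, against a median of 7 over all promoters. A match of letters is a description of the sequence and not a measured binding site.

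The array probes are 60 bases long. The Ezh1 probe at transcript base 2248 is shown because it lies upstream of the other probes on the same transcript and gives a reading separate from theirs. It lies at chr11:101054534-101054593 on the minus strand of mm9, the build on which the array was designed.
Ezh1 probe: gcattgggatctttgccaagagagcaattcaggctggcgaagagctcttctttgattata

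Levels are log2 processed signal minus the 75th percentile of the same array, so 0 is the brightness of the 75th-percentile spot. Differences are on this log2 scale and come from a limma fit over 24553 genes and 6 arrays. A gene was said to rise or fall where the Benjamini-Hochberg adjusted p was under 0.05.

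None of the 10 Polycomb genes rose or fell in any comparison of genotypes. For VSKO against WT, 0 of 10 members passed in limma, where 0.965% of all genes passed, and 0 of 10 had an unadjusted p under 0.05, against 14.7% of all genes. For HEMI against WT, 0 of 10 passed, against 0.118% of all genes, and 0 of 10 had an unadjusted p under 0.05, against 12.4%. For VSKO against HEMI, 0 of 10 passed, against 0.143% of all genes, and 1 of 10, Bmi1, had an unadjusted p under 0.05, against 7.69%. With backgrounds this low, 0 calls among 10 genes is near the background.

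The size of the differences in RNA of the whole testis is bounded by the intervals. The bounds do not hold for germ cells alone, whose RNA was not measured apart. They come from the reported fit, and intervals were not computed for the alternative settings described below. With median scaling the standard error of Ring1 for VSKO minus WT was 0.24, against 0.20 in the reported fit. Over all settings the Ring1 difference for HEMI minus WT ranged from 0.29 to 0.67. All 30 of the 95% intervals (10 genes in 3 comparisons) lay within 2-fold in either direction, and 29 of 30 included 0. The outermost ends of the intervals, as folds, were 0.672 and 1.72 for VSKO over WT, 0.712 and 1.98 for HEMI over WT, and 0.593 and 1.51 for VSKO over HEMI. Changes smaller than these bounds are not excluded by 2 animals per group, and a p above the threshold does not show that the genotypes are alike. The median absolute difference of the members was 0.13 for VSKO minus WT, 0.16 for HEMI minus WT and 0.11 for VSKO minus HEMI, beside 0.19, 0.19 and 0.13 over all genes. All genes include dim ones, so these medians are not compared at equal signal.

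**Figure D1:**
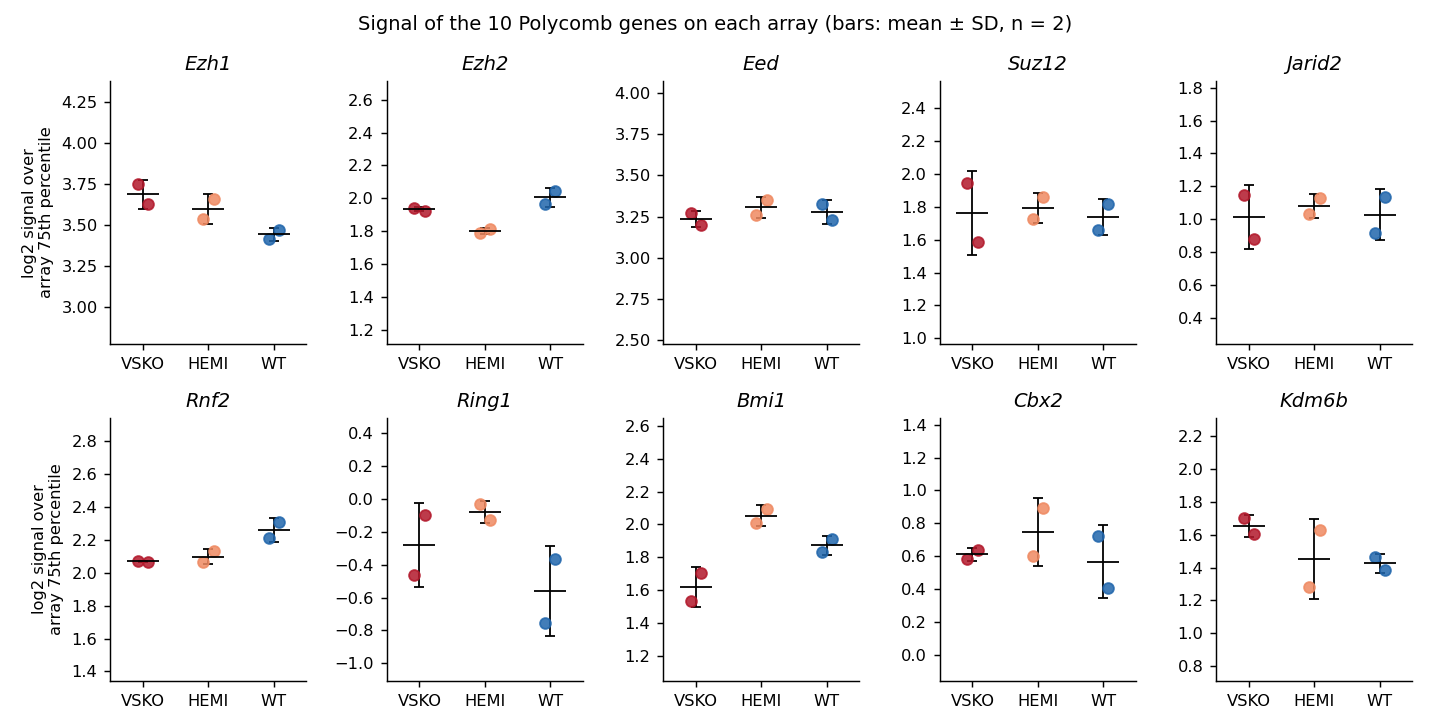
Log2 signal over the array's 75th percentile (y axis) for each of the 10 Polycomb genes in VSKO, HEMI and WT testes. Points are single arrays and bars are the mean ± SD of 2 animals; each panel spans the same height, and the points of the Bmi1 panel lie between 1.54 and 1.71 in VSKO, below both HEMI and WT.

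The catalytic subunits of PRC2 differed by small amounts. Ezh1, the methyltransferase more typical of non-dividing cells, had levels of 3.75 and 3.62 in VSKO, 3.53 and 3.66 in HEMI, and 3.41 and 3.47 in WT. Both VSKO arrays and both HEMI arrays lay above both WT arrays, while VSKO and HEMI overlapped. The difference was 0.24 ± 0.12 (SE) for VSKO minus WT, a fold of 1.18 with a 95% interval of 0.954 to 1.47 (limma adjusted p = 0.437). It was 0.15 ± 0.12 for HEMI minus WT (limma adjusted p = 0.650) and 0.09 ± 0.12 for VSKO minus HEMI (limma adjusted p = 0.999).

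The other Ezh1 probes did not all point the same way. The probe at base 3883 of the same transcript differed by 0.26 and the one at base 2248, whose sequence is given above, by 0.12 for VSKO minus WT. The probe at base 3557 of another Ezh1 transcript differed by -0.26, with a 95% interval of -0.66 to 0.15. That probe was dim, with levels of -4.11 to -3.58, and the one at base 2248 had -2.80 to -2.37. The probe at base 4133, which stands for the gene, had 3.41 to 3.75. For HEMI minus WT the 4 probes gave 0.15 at base 4133, 0.12 at base 3883, 0.10 at base 2248 and 0.02 on the other transcript. None of the 4 passed in any comparison.

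Ezh2, the methyltransferase typical of dividing cells, had levels of 1.94 and 1.92 in VSKO, 1.79 and 1.81 in HEMI, and 1.96 and 2.05 in WT. The 3 genotypes did not overlap, with WT highest and HEMI lowest, so the order did not follow the number of intact Sin3a alleles. The difference was -0.07 ± 0.11 for VSKO minus WT (limma adjusted p = 0.811) and -0.21 ± 0.11 for HEMI minus WT, with a 95% interval of -0.49 to 0.08 (limma adjusted p = 0.529). VSKO minus HEMI was 0.13 ± 0.11 (limma adjusted p = 0.991). Summed proliferation markers, which include Mki67 and Top2a, were 102 to 118 in VSKO, 103 to 114 in HEMI and 110 to 111 in WT, in multiples of the array's 75th percentile. These ranges overlap, and their part in the Ezh2 values was not tested.

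The core subunits without catalytic activity overlapped between all groups. Eed, whose protein binds the methyl mark and stimulates the enzyme, had levels of 3.27 and 3.20 in VSKO, 3.26 and 3.35 in HEMI, and 3.33 and 3.23 in WT. Its differences were -0.04 ± 0.12 for VSKO minus WT, 0.03 ± 0.12 for HEMI minus WT and -0.07 ± 0.12 for VSKO minus HEMI. These were smaller than their standard errors.

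Suz12, which holds the complex together, had levels of 1.95 and 1.58 in VSKO, 1.73 and 1.86 in HEMI, and 1.66 and 1.81 in WT. The pair of VSKO animals spanned a wider range than all 4 other arrays. Its differences were 0.03 ± 0.17 for VSKO minus WT, 0.05 ± 0.17 for HEMI minus WT and -0.03 ± 0.17 for VSKO minus HEMI.

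Jarid2 repeated the Suz12 pattern among animals. Its levels were 1.15 and 0.88 in VSKO, 1.03 and 1.13 in HEMI, and 0.92 and 1.14 in WT. Its differences were -0.01 ± 0.16 for VSKO minus WT, 0.05 ± 0.16 for HEMI minus WT and -0.07 ± 0.16 for VSKO minus HEMI. Across the 6 arrays Suz12 and Jarid2 had the highest Pearson r of the 45 pairs of members, 0.95, and the points share arrays and scaling.

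Of the 2 ubiquitin ligases of PRC1, Rnf2 had VSKO and HEMI means below WT and Ring1 had both above WT, without a call. Rnf2, the main H2A ligase in embryonic stem cells, had levels of 2.07 and 2.07 in VSKO, 2.07 and 2.13 in HEMI, and 2.21 and 2.31 in WT. Both VSKO and both HEMI arrays lay below both WT arrays. The difference was -0.19 ± 0.12 for VSKO minus WT, a fold of 0.876 with a 95% interval of 0.716 to 1.07 (limma adjusted p = 0.512). It was -0.16 ± 0.12 for HEMI minus WT (limma adjusted p = 0.620) and -0.03 ± 0.12 for VSKO minus HEMI (limma adjusted p = 0.999).

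Ring1, its paralog, had the largest standard error of the members. Its levels were -0.46 and -0.10 in VSKO, -0.03 and -0.13 in HEMI, and -0.75 and -0.37 in WT. HEMI lay above WT without overlap, and VSKO overlapped both. HEMI minus WT was 0.48 ± 0.20, a fold of 1.39 with a 95% interval of 0.983 to 1.98 (limma unadjusted p = 0.0586, adjusted p = 0.423). VSKO minus WT was 0.28 ± 0.20 (limma adjusted p = 0.574) and VSKO minus HEMI was -0.20 ± 0.20 (limma adjusted p = 0.999). The gap between the 2 WT animals was 0.39, against 0.20 to 0.48 for the differences between genotypes.

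Bmi1, the PCGF subunit known for sustaining stem cells and for repressing the Cdkn2a locus, had levels of 1.54 and 1.71 in VSKO, 2.01 and 2.10 in HEMI, and 1.83 and 1.91 in WT. The 3 genotypes did not overlap, with HEMI highest and VSKO lowest. VSKO minus HEMI was -0.43 ± 0.13, a fold of 0.741 with a 95% interval of 0.593 to 0.926. Its unadjusted p was 0.0175 and its limma adjusted p over all genes 0.424, so Bmi1 did not pass. VSKO minus WT was -0.25 ± 0.13 (limma adjusted p = 0.436) and HEMI minus WT was 0.18 ± 0.13 (limma adjusted p = 0.616).

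The second Bmi1 probe did not show this spacing. At transcript base 3324, downstream of the probe at base 2868 that stands for the gene, levels were 0.00 and 0.19 in VSKO, 0.19 and 0.19 in HEMI, and 0.06 and 0.14 in WT. The 2 VSKO values span those of WT, and VSKO minus HEMI was -0.10 ± 0.13. The Bmi1 values therefore depend on the probe read. Cdkn2a, the best known target of Bmi1, had levels of 1.14 and 1.57 in VSKO, 1.46 and 1.51 in HEMI, and 1.79 and 1.82 in WT, with a VSKO minus WT difference of -0.45 (limma adjusted p = 0.331).

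**Figure D2:**
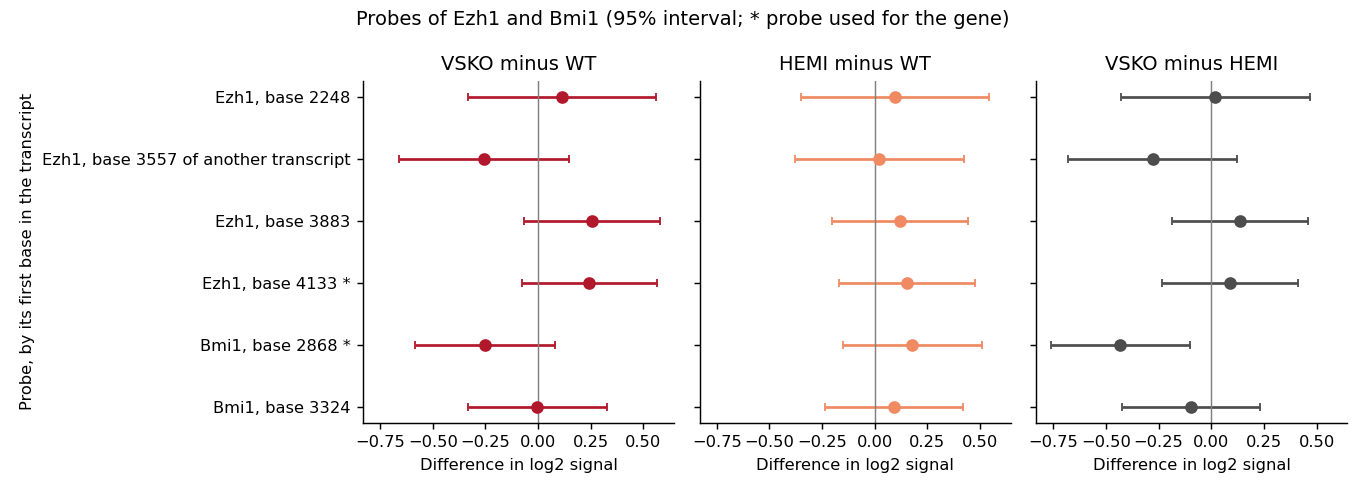
Differences in log2 signal (x axis) with 95% intervals for the 4 probes of Ezh1 and the 2 probes of Bmi1 (rows), for VSKO minus WT, HEMI minus WT and VSKO minus HEMI (panels). The Bmi1 probe at base 2868 lies at -0.43 for VSKO minus HEMI and the one at base 3324 at -0.10.

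Cbx2, the chromobox reader, had levels of 0.58 and 0.64 in VSKO, 0.60 and 0.89 in HEMI, and 0.72 and 0.41 in WT. All groups overlapped. Its differences were 0.04 ± 0.17 for VSKO minus WT, 0.18 ± 0.17 for HEMI minus WT and -0.14 ± 0.17 for VSKO minus HEMI.

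Kdm6b, the demethylase that opposes PRC2, had levels of 1.70 and 1.60 in VSKO, 1.28 and 1.63 in HEMI, and 1.47 and 1.38 in WT. VSKO lay above WT without overlap, and HEMI spanned WT. VSKO minus WT was 0.23 ± 0.16, a fold of 1.17 with a 95% interval of 0.888 to 1.54 (limma adjusted p = 0.566). HEMI minus WT was 0.03 ± 0.16 and VSKO minus HEMI was 0.20 ± 0.16 (limma adjusted p = 0.984).

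Groups that do not overlap are common with 2 animals each, and the members were close to the background. For VSKO against WT, 5 of 10 members did not overlap, against 45.7% of all genes. Of these, 2 were higher (Ezh1, Kdm6b; 22.3% of all genes) and 3 lower (Ezh2, Rnf2, Bmi1; 23.4%). For HEMI against WT, 5 of 10 did not overlap, against 49.3%. Of these, 3 were higher (Ezh1, Ring1, Bmi1; 20.9%) and 2 lower (Ezh2, Rnf2; 28.4%). For VSKO against HEMI, 2 of 10 did not overlap, against 32.9%: Ezh2 was higher (18.8%) and Bmi1 lower (14.1%). VSKO and HEMI were compared with the same WT arrays, so those counts share their controls. WT arrays lay in row 2 of the slide and all others in row 1, so row and genotype cannot be told apart in comparisons with WT. HEMI arrays lay in columns 3 and 4 of the slide and all others in columns 1 and 2. Column and genotype therefore cannot be told apart in comparisons with HEMI.

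**Figure D3:**
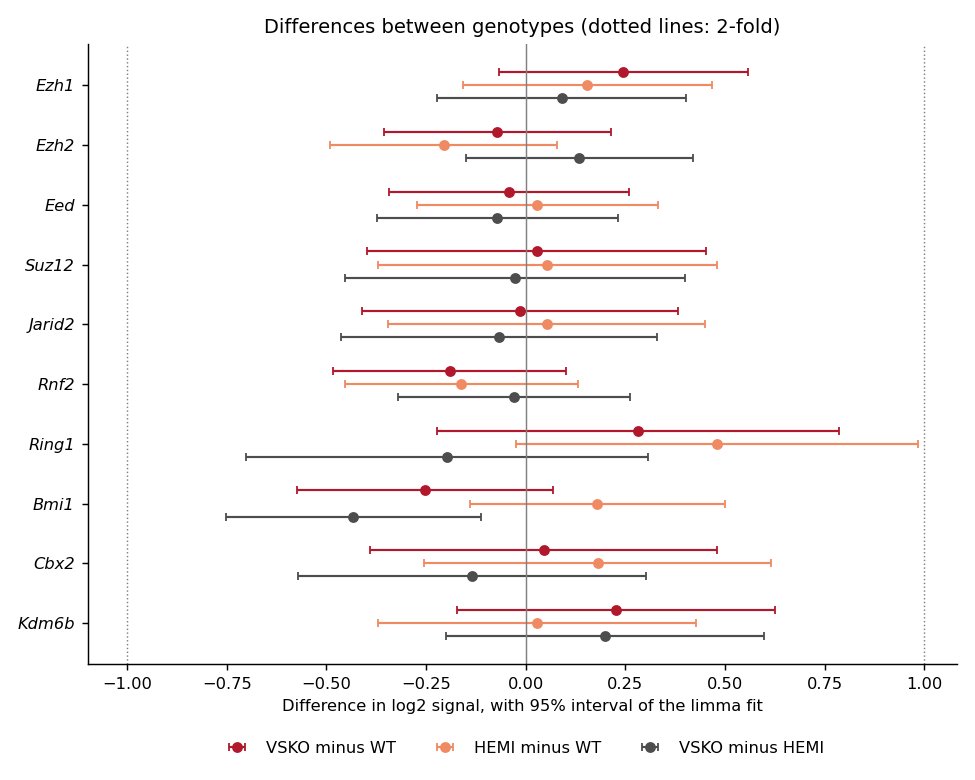
Differences in log2 signal (x axis) with 95% intervals for the 10 Polycomb genes (rows), coloured by comparison, with dotted lines at 2-fold. All 30 intervals lie between the dotted lines, and that of Bmi1 for VSKO minus HEMI is the one that leaves out 0.

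The signals of the members were close between animals of a genotype. The median gap between the 2 animals stood at 0.11 for VSKO, 0.10 for HEMI and 0.10 for WT, beside 0.22, 0.17 and 0.16 over all genes tested. The members were above background on all 6 arrays, whereas the filter asked this of only 1 group. The part of brightness in these gaps was not tested. Over the 45 pairs of members the median Pearson r across 6 arrays was 0.07, with 27 pairs above 0 and 18 below. The lowest was -0.69, between Ezh1 and Rnf2.

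The genes whose pattern over the 6 arrays was most like that of Ezh2, Rnf2 and Kdm6b were taken from 17100 genes with a RefSeq symbol. For Ezh2 they were Btn2a2 (r = 0.997), Lck (0.995) and Larp1b (0.993). For Rnf2 they were Ipo8 (0.999), Kif16b (0.996) and Pdk3 (0.994). For Kdm6b they were Gpat4 (0.981), Rin3 (0.978) and Myzap (0.976). With 6 arrays such values are frequent: r was over 0.95 for 49 genes with Ezh2, 111 with Rnf2 and 16 with Kdm6b.

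The remaining genes of the Polycomb and opposing Trithorax systems gave no call either. Over all genes, 0.965% passed for VSKO minus WT, 0.118% for HEMI minus WT and 0.143% for VSKO minus HEMI. Of 9 other PRC2 subunits, 0 passed in any comparison, with a median VSKO minus WT difference of 0.03, and 2 had an unadjusted p under 0.05 for VSKO minus WT (14.7% of all genes), 0 for HEMI minus WT (12.4%) and 2 for VSKO minus HEMI (7.69%). Epop, which links PRC2 to elongin, had levels of 0.83 and 0.83 in VSKO, -0.10 and 0.28 in HEMI, and -0.18 and 0.15 in WT. Both VSKO arrays lay above the other 4, and VSKO minus WT was 0.85 ± 0.19 (limma unadjusted p = 0.00612, adjusted p = 0.147). Phf1, a Polycomb-like accessory subunit, differed by 0.32 (limma adjusted p = 0.308), its relative Mtf2 by -0.12 and the PRC2 inhibitor Ezhip by -0.08.

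Of 23 other PRC1 subunits, 0 passed in any comparison, and 3 had an unadjusted p under 0.05 for VSKO minus WT (14.7% of all genes), 1 for HEMI minus WT (12.4%) and 0 for VSKO minus HEMI (7.69%). Their median VSKO minus WT difference was -0.00. Scml2, a germline PRC1 partner, had levels of 1.06 and 0.99 in VSKO, 1.27 and 1.23 in HEMI, and 1.54 and 1.72 in WT. The 3 genotypes did not overlap, and VSKO minus WT was -0.60 ± 0.12 (limma adjusted p = 0.122). Its pair of dimmer probes each gave -0.10. Cbx8, another chromobox reader, differed by -0.47 (limma adjusted p = 0.285). The PCGF genes Pcgf5 and Pcgf3 differed by 0.29 and 0.26, but a further Pcgf5 probe gave -0.90.

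Of 9 genes for removal of the histone marks, 0 passed in any comparison, and 0 had an unadjusted p under 0.05. Over all genes that share was 14.7% for VSKO minus WT, 12.4% for HEMI minus WT and 7.69% for VSKO minus HEMI. Asxl2, a partner of the H2A deubiquitinase BAP1, and Uty, the Y-linked relative of the H3K27 demethylase Kdm6a, each differed by 0.25 for VSKO minus WT, and Hcfc1 differed by 0.03 (0.70 with the mean of its probes, limma adjusted p = 0.160). Asxl3, another BAP1 partner and the 1 gene of the list below 0, differed by -0.27 (limma adjusted p = 0.559). Of 12 tested of 14 Trithorax and MLL genes, which maintain active states, 0 passed in any comparison and 0 had an unadjusted p under 0.05. The shares over all genes are the same as above, and with 9 and 12 genes nothing is read from these counts. Kmt2a and Setd1b were not tested because no probe carries these symbols after the update of names. Paxip1 differed by 0.26, Setd1a by 0.22, Dpy30 by -0.24 and Kmt2b by -0.10 for VSKO minus WT.

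Genes that Polycomb complexes are known to silence spread more widely than the complex genes, at lower signals. Their median level on an array was -2.89 to -2.25, against 1.65 to 1.86 for the members. The part of the signal level in this spread was not tested. Of 50 listed targets, 42 were tested, and 2 rose in VSKO over WT while 0 fell, against 0.346% of all genes that rose and 0.619% that fell. Of the 42, 6 were not well above background in VSKO or WT, and 1 of the 2 that rose, Hoxb1, passed the filter on dim probes only through VSKO, the group in which it was high, so nothing is read from this count. The list was chosen with earlier results for Hox genes in these data known, so its direction is not independent evidence. The median VSKO minus WT difference was 0.29, beside -0.01 over all genes. On the log2 scale, 12 of 42 targets differed by more than 1, against 5.71% of all genes. The 42 include 7 Hoxb genes of the same cluster. Of these, 6 lay higher in VSKO than in WT without overlap, against 22.3% of all genes. Hoxb1 is among the 6 and the genes share a cluster, so nothing is read from the count of 6. Hoxb1, Pax6 and Cdx2, not well above background in WT, are among the 12. Nothing is read from the count of 12 either. Median differences were 0.12 for HEMI minus WT and 0.13 for VSKO minus HEMI, with 0 of 42 called by limma in either. A limma unadjusted p under 0.05 was found for 8 in HEMI minus WT (12.4% of all genes) and 13 in VSKO minus HEMI (7.69%). The 13 include genes, Hoxb1 and Cdx2 among them, that passed the dim-probe filter only through VSKO. Nothing is read from the counts of 8 and 13.

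Hoxb1, a hindbrain patterning gene, had levels of -3.74 and -3.44 in VSKO, -7.56 and -6.75 in HEMI, and -6.54 and -7.19 in WT, and was not well above background in HEMI or WT. It was at least 3.32-fold higher in VSKO than in WT (limma adjusted p = 0.0345) and at least 4.64-fold higher than in HEMI (limma adjusted p = 0.0587). T (Brachyury), a mesoderm factor, had levels of -1.59 and -1.53 in VSKO, -3.29 and -2.72 in HEMI, and -3.47 and -3.98 in WT, with a VSKO minus WT difference of 2.17 ± 0.26 (limma adjusted p = 0.0433). Both calls were lost when any 1 of the 6 arrays was left out and without the dim-probe filter (limma adjusted p = 0.0842 for Hoxb1 and 0.0973 for T). Both were also lost with only 2 groups fitted and with the replicate number as a block, and T with quantile scaling (limma adjusted p = 0.0518). Hoxb1 passed in 7 of 17 settings and T in 8 of 18, the reported one included. With normexp background correction the differences were 0.78 for Hoxb1 (limma adjusted p = 0.0660) and 1.26 for T (limma adjusted p = 0.0192). Hoxb8 differed by 3.26 (limma adjusted p = 0.0513). At the other end, Hoxd13, not well above background in VSKO, was at least 1.89-fold lower than in WT (limma adjusted p = 0.202).

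**Figure D4:**
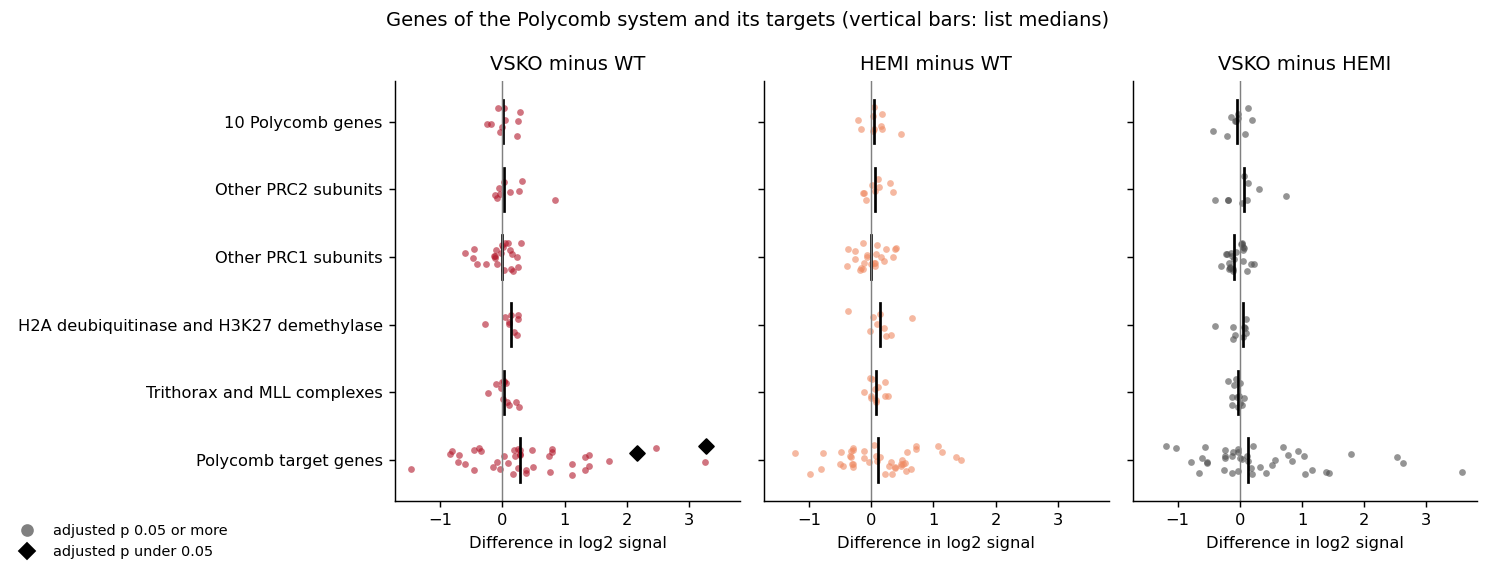
Differences in log2 signal (x axis) for each tested gene of 6 lists (rows), by comparison (panels). Points are genes, diamonds are genes with an adjusted p under 0.05 and vertical bars are list medians. The 2 diamonds, Hoxb1 at 3.28 and T at 2.17, are targets in VSKO minus WT, and the 10 Polycomb genes lie close to 0. The position of Hoxb1 rests on a WT signal that was not well above background.

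Sin3a itself had levels of 0.61 and 0.38 in VSKO, 0.89 and 0.89 in HEMI, and 1.09 and 1.11 in WT. The genotypes did not overlap, and VSKO minus WT was -0.60 ± 0.13 (limma adjusted p = 0.134). The labels do not give the deleted exons, so a probe outside them would check nothing. Between 59.2% and 64.5% of spots were well above background per array, and none was saturated.

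Markers of cell types present in or near the testis were read beside these values, as sums in multiples of the array's 75th percentile. Of 14 germ cell markers, 13 were above background on all 6 arrays, and their sum was 36.4 to 38.3 in VSKO, 34.1 to 38.4 in HEMI and 37.0 to 42.3 in WT. Nanos2, a germ cell RNA regulator, fell in VSKO and was not well above background there (at least 7.14-fold lower than in WT, limma adjusted p = 0.0426). That call held in 6 of 17 settings, the reported one included, and was lost without any 1 array, with quantile scaling, with normexp and without the dim-probe filter (limma adjusted p from 0.0214 to 0.175 over the settings). The sum of 10 Sertoli cell markers was 178 to 199.8 in VSKO, 171 to 193 in HEMI and 178 to 195 in WT.

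Leydig cell markers differed more. The sum of 7 was 137 to 139 in VSKO, 121 to 146 in HEMI and 188 to 221 in WT. For VSKO minus WT, Hsd3b1 and Nr5a1 differed by 0.03 and 0.05, and the other 5 lay below 0. Cyp17a1, a steroid synthesis enzyme, differed by -1.03 for HEMI minus WT (limma adjusted p = 0.120) and by -0.36 for VSKO minus HEMI. It fell in VSKO by 1.40 on the log2 scale against WT (limma adjusted p = 0.0426). This call held in 9 of 18 settings and was lost without any 1 array and without the dim-probe filter (limma adjusted p from 0.0140 to 0.173). The 9 mesonephric duct and rete markers had a median VSKO minus WT difference of 0.21, with 1 below 0 (Gata3, -0.52). Lhx1 differed by 1.52 for HEMI minus WT (limma adjusted p = 0.0527) and by -0.27 for VSKO minus HEMI. It rose by 1.25 in VSKO over WT (limma adjusted p = 0.0433). The mean of its probes gave 0.76 (limma adjusted p = 0.0944), and the call held in 7 of 18 settings and was lost without any 1 array, with quantile scaling (0.0544) and without the dim-probe filter (0.0973). The sum of the 9 was 22.8 to 35.0 in VSKO, 25.7 to 36.2 in HEMI and 22.6 to 26.2 in WT. The sum of erythroid markers ranged over 196 to 564 in VSKO, 167 to 180.4 in HEMI and 192 to 194 in WT. Skeletal muscle markers summed to 8.90 to 18.4 in VSKO, 16.6 to 42.7 in HEMI and 10.73 to 47.3 in WT. The part of these differences in cell content in the Polycomb values was not tested.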

How the data were processed

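RNA of each animal was hybridised to 1 single-colour Agilent array, 6 on a single slide, scanned together. The deposited scanner files give the processed signal, the mean signal and the local background as an intensity on a linear scale. They also give 0 or 1 quality flags, which per the file headers are calls and no signal. The submitters' processing notes name Agilent Feature Extraction 8.5.1.1, and the file headers give 10.7.3.1. The authors' series table is an intensity too, and equals the processed signal divided by the array median within 0.00105%. No deposited value was on a log2 scale, so log2 was taken here from the authors' processed signal, minus the 75th percentile of the 59305 spots on an array that are no controls.

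Spots with an outlier flag were dropped, and those of a probe averaged. The filter kept 34335 probes, each well above background on both arrays of some group, and the brightest probe stood for a gene. Gene names were updated through RefSeq (GRCm38.p6): 26762 probes by accession, 102 by another accession, 3751 by symbol, and 25066 kept the file's name. limma 3.58.1 in R 4.3.3 fitted 1 mean per genotype (3 residual and 2.25 prior degrees of freedom), with Benjamini-Hochberg adjustment over 24553 genes. A fold against a group not above background is a lower bound, computed against the lowest signal well above background on each array or the probe's own, whichever is higher. The fit was tested on simulated data.

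The members and lists were chosen with earlier results of these data known. The text names all members by every probe, Sin3a, the 3 genes most like Ezh2, Rnf2 and Kdm6b, and from each list up to 4 called genes a direction or, with none called, up to 2 at each end. Hoxb8, Hoxd13 and Cdkn2a fall outside that rule and were chosen after their values were seen. Pax6, Cdx2, Gata3, Hsd3b1, Nr5a1 and Top2a fall outside that rule too. Alternatives covered scaling, background correction, the authors' series values, the dim-probe filter, the choice of probe, an intensity trend, a fit of only 2 groups, the replicate number as a block and leaving out each array. The number of arrays, 2 per genotype, limits the precision.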

Additional observations from a re-analysis of the deposited data

How the results depend on the processing

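No Polycomb gene passed under any of the 17 alternatives, and the lowest adjusted p over them was 0.299 (Bmi1, VSKO minus HEMI, limma). The counts of all genes called moved more. For VSKO minus WT, 237 genes became 12 without the dim-probe filter, 42 with only 2 groups fitted and 0 to 69 with 1 array left out. For HEMI minus WT, 29 became 55 with median scaling or the series values, 132 with normexp, 0 without the filter, 68 with probes above background on all 6 arrays, 130 with a trend, 4 with only 2 groups and 0 to 8 with 1 array left out. For VSKO minus HEMI, 35 became 74 with median scaling or the series values, 17 with quantile scaling, 5 without the filter, 15 with probes above background on all 6 arrays, 0 with only 2 groups and 0 to 41 with 1 array left out. With the replicate number as a block the counts were 19, 0 and 0. Deviations of same-numbered arrays correlated at -0.03, -0.01 and -0.04 in these 3 comparisons, so little deviation was shared by number across genes. Same-numbered VSKO and WT arrays also lay in the same slide column, 1 or 2. At the limma counts of 0, unadjusted p under 0.05 held for 5278 genes (HEMI minus WT, no filter), 1738 (VSKO minus HEMI, only 2 groups), 2794 and 1872 (block, HEMI minus WT and VSKO minus HEMI), and 1692 to 2816 with 1 array left out. Leaving out either WT array gave 0 calls in all 3 comparisons.

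Some signs changed. Suz12 was -0.00475 for VSKO minus WT with median scaling or the series values, and Ezh1 was -0.00799 for VSKO minus HEMI with the mean of its probes. Outside the members, Uty was -0.0247 with normexp and Pcgf5 -0.0845 with the mean of its probes for VSKO minus WT, for which Hcfc1 was 0.70 with the mean of its probes. With 1 array left out, 18 of 180 member values changed sign. For VSKO minus WT the ranges were Suz12 -0.15 to 0.21, Hcfc1 -0.20 to 0.27, Jarid2 -0.15 to 0.12, Ezhip -0.18 to 0.016, Kmt2b -0.25 to 0.0529, Eed -0.093 to 0.00946, Mtf2 -0.28 to 0.0419, Cbx2 -0.11 to 0.20 and Uty -0.41 to 0.91. For HEMI minus WT they were Eed -0.0219 to 0.0806, Suz12 -0.0225 to 0.13, Kdm6b -0.14 to 0.20 and Jarid2 -0.0577 to 0.16. For VSKO minus HEMI they were Suz12 -0.21 to 0.15, Jarid2 -0.20 to 0.0686, Rnf2 -0.0616 to 0.00275 and Cbx2 -0.28 to 0.00959. The cause of these changes was not tested. Scaling moved the median of all genes by less than 0.1.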
